A study of Mus musculus with 6 samples.

Results

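Inflammatory cytokines were followed one by one in the colon of mice that gained much or little weight on the same high-fat diet. The cytokines were chosen by gene symbol from a list of 10 (*Il1a*, *Il1b*, *Il1rn*, *Il6*, *Il10*, *Il15*, *Il18*, *Il33*, *Tnf* and *Ifng*), and 9 of them had a row among the 17778 genes of the expression table; *Il6* was not analysed here. The groups were obesity-prone (OP) mice and obesity-resistant (OR) mice, 3 in each, with 1 colon library per mouse. All 6 were male C57BL/6J mice of wild-type (WT) genotype, 21 weeks old, kept on a diet with 60% fat for 16 weeks, and they were assigned to OP or OR by their own weight gain at the upper or lower end of one cohort. No mouse on a normal diet is in this comparison, and the labels name the tissue only as colon, without the segment. The comparison asks whether cytokine mRNA differed between mice that gained the most and mice that gained the least weight on this diet.

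Cytokines are secreted proteins by which immune, epithelial and stromal cells instruct each other. In the interleukin-1 (IL-1) family, IL-1 alpha, IL-1 beta and IL-33 start inflammatory responses, IL-18 does so mainly from the epithelium of the gut, and the IL-1 receptor antagonist encoded by *Il1rn* occupies the IL-1 receptor without signalling. Tumour necrosis factor (TNF) and interferon gamma come largely from macrophages and lymphocytes, IL-15 sustains intraepithelial lymphocytes and natural killer (NK) cells, and IL-10 restrains macrophages.

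Of the 9 cytokines, 6 reached 0.5 FPKM, a fragment count scaled to transcript length and library size, in 3 mice or more and could be compared, and 3 (*Ifng*, *Il10* and *Il1a*) were too low to read. *Il33* and *Il1b* were lower in every OP mouse than in every OR mouse, with means 2.50 times and 2.21 times as high in OR mice. *Il18*, *Il1rn*, *Il15* and *Tnf* overlapped between the groups. Groups that did not overlap were found in 6.81% of all genes tested with OP lower and in 1.63% with OP higher. By limma-trend, a linear model fitted over the 13520 genes that passed the filter, 0 of the 6 were called at the study's threshold, which asks for a q-value under 0.2 together with a fold change of 1.2 upwards or 0.83 downwards. In that fit 0.0222% of all genes, or 3, were called lower and 0% higher in OP mice. Only the threshold was the study's. The study used another test, DESeq2, and reported more genes at that threshold. A count of 0 called here is therefore not the study's own result. At an unadjusted p below 0.05, 2 of the 6 were lower and 0 were higher, where 3.53% of all genes were lower and 0.503% higher. Those shares stand for 477 and 68 genes, which became 423 and 153 after median-of-ratios scaling, a rescaling that moved the all-gene median (log2) from -0.10 to 0.01.

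The libraries were similar in size. The FPKM values of a mouse summed to between 585350 and 600028, and between 16287 and 16619 genes were above 0. Low FPKM values fell in steps, as whole reads do. Over 139 to 151 genes per mouse with a single annotated transcript, 71.8% to 77.0% of the values lay within 0.2 reads of a whole number at the best depth, where values spread evenly would give 40%. The depth was chosen on these same values for closeness to whole numbers, which can raise the share. The 40% holds for a depth fixed beforehand. The depth that made the steps whole was 13750000 to 15500000 mapped reads per mouse, and 12250000 to 16500000 when other lengths were taken off the transcripts. These depths and the read numbers derived from them are estimates and cover counting only. The read numbers took the longest annotated transcript of a gene, and a shorter transcript would give fewer reads. Defining markers of the intestinal epithelium were high in all 6 mice: *Epcam*, an epithelial adhesion protein, ranged from 935 to 1188 FPKM and *Cdx2*, a transcription factor of the intestine, from 180 to 246 FPKM.

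FPKM is scaled by transcript length, so the levels of different genes can be set side by side. *Il18* had the highest mean over the 6 mice at 19.5 FPKM, followed by *Il1rn* at 15.3 and *Il15* at 12.6. *Il33* had a mean of 1.495 FPKM, *Tnf* of 1.24 and *Il1b* of 0.937. The lowest were *Ifng* at 0.195, *Il10* at 0.147 and *Il1a* at 0.0717 FPKM. Among all genes in the table, the mean of *Il18* was at or above that of 75.1% and the mean of *Il1a* at or above that of 11.3%. By their means the 9 cytokines thus fell into 3 levels. *Il15* was above *Il33* in 6 of 6 mice and *Il1b* was above *Ifng* in 6 of 6 mice, whereas neighbours within a level changed places from mouse to mouse. In OP mouse 2 *Il1b* and *Ifng* were close, at 0.36 and 0.27 FPKM or about 6 and 4 reads. *Il18* was above *Il1rn* in 4 of 6 mice, *Il1rn* above *Il15* in 2, *Il33* above *Tnf* in 4, *Tnf* above *Il1b* in 4, *Ifng* above *Il10* in 3 and *Il10* above *Il1a* in 4.

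**Figure D1:**
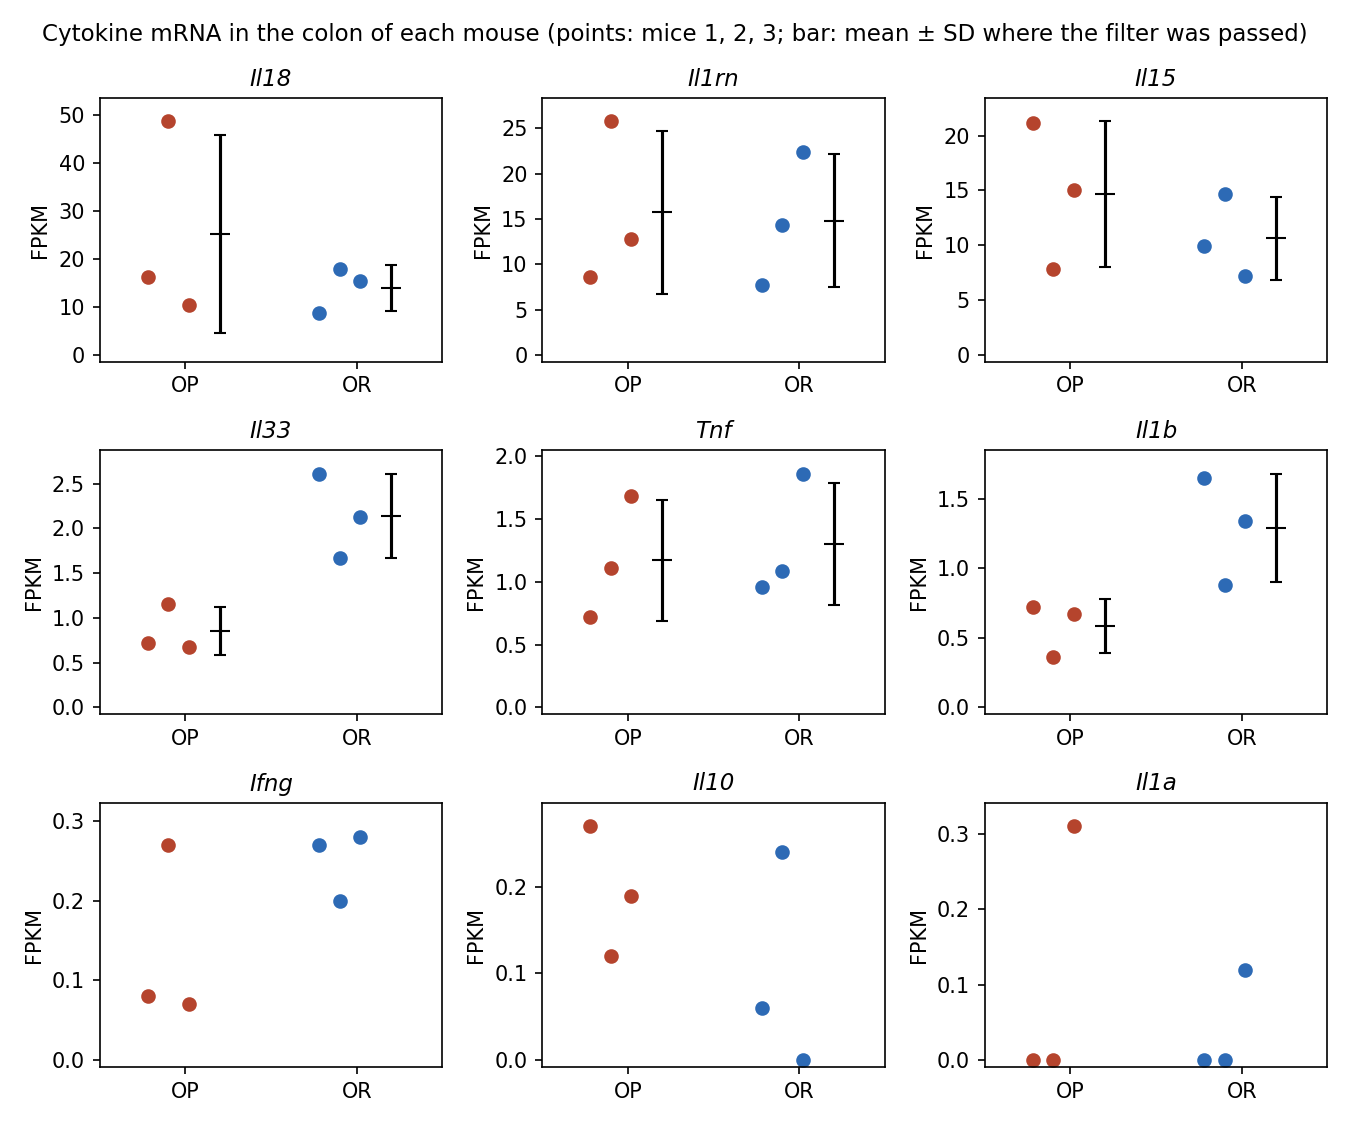
FPKM of the 9 cytokines in each mouse (vertical axis, linear, separate for each panel), with OP mice in red and OR mice in blue. Bars give the mean ± SD of 3 mice for the 6 cytokines that passed the filter. *Il33* and *Il1b* separate the groups, *Il18* has its highest point in OP mouse 2 at 48.6 FPKM, and *Ifng*, *Il10* and *Il1a* reach at most 0.31 FPKM.

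The bases just before the gene starts are printed for *Il33* and *Il1b*, whose groups did not overlap, and for *Tnf* and *Il18*, whose groups did. RefSeq promoters on GRCm38.p6 were found for 7 of the 9 cytokines, with 10 listed starts, and TATAAA, the core of the TATA box that positions transcription, was searched for on both strands of the 100 bases before each start. It was present at 5 of the 10 starts and in 5.56% of the 32851 promoters of all genes. Those with it were *Il1b*, *Tnf*, *Il1a*, *Ifng* and 1 of the 2 starts of *Il33*. *Il18* and the 3 listed starts of *Il1rn* did not hold these letters in this window. The match began between positions -32 and -29 from the start, always on the strand of the gene. It is a description of the letters only. Capitals mark the match, and sequences run 5′ to 3′ on the strand of the gene.
Il33, chr19:29945690-29945789, + strand: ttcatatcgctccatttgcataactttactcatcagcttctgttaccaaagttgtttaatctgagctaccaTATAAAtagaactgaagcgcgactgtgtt
Il33, other start, chr19:29925013-29925112, + strand: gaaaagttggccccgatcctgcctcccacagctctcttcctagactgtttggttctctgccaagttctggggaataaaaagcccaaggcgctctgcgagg
Il1b, chr2:129371140-129371239, - strand: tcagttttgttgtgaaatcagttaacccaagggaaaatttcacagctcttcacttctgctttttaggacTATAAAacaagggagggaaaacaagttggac
Tnf, chr17:35202008-35202107, - strand: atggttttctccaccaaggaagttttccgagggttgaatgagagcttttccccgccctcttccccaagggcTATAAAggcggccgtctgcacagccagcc
Il18, chr9:50554600-50554699, + strand: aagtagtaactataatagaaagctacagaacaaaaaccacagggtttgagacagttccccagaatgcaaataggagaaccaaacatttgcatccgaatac

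*Il33*, which encodes an alarmin held in the nucleus of stromal and endothelial cells and released on damage, showed the clearest difference. Its FPKM was 0.72, 1.16 and 0.68 in OP mice 1, 2 and 3 and 2.61, 1.67 and 2.13 in OR mice 1, 2 and 3. The lowest OR mouse was above the highest OP mouse. The group values were 0.853 ± 0.266 FPKM (SD, n = 3) in OP mice and 2.14 ± 0.470 FPKM (SD, n = 3) in OR mice. By the estimated depths, about 86 reads of the 3 OP mice and 222 reads of the 3 OR mice lay behind these values. The log2 fold change OP/OR on the log2(FPKM + 1) scale was -0.76 (standard error 0.20, 95% interval -1.22 to -0.30), with an unadjusted limma-trend p of 0.00574 and an adjusted p of 0.798. A two-sided exact permutation test gave p = 0.1, the smallest that 3 mice against 3 allow. Since 1 is added before the logarithm, this fold change understates that of a gene near 1 FPKM, and with 0.1 added it was -1.24.

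*Il1b* encodes IL-1 beta, the inflammasome-processed cytokine of macrophages and neutrophils. The OP mice had 0.72, 0.36 and 0.67 FPKM and the OR mice 1.65, 0.88 and 1.34 FPKM, so the groups did not overlap. The gap between them was narrow, from 0.72 in OP mouse 1 to 0.88 in OR mouse 2. The means were 0.583 ± 0.195 FPKM (SD, n = 3) and 1.29 ± 0.387 FPKM (SD, n = 3), resting on about 28 and 64 reads. The log2 fold change was -0.53 (standard error 0.20, 95% interval -0.99 to -0.07) with an unadjusted limma-trend p of 0.0302 and an adjusted p of 0.945. The unadjusted limma-trend p was 0.104 without OP mouse 2, 0.110 without OR mouse 1 and 0.0854 without OR mouse 3, so the side of 0.05 on which *Il1b* fell depended on single mice. OP mouse 2, at 0.36 FPKM, was the 1 mouse below the filter of 0.5.

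In bulk tissue, fewer cells of a type and less RNA per cell cannot be told apart. Markers of fibroblasts, blood endothelium and macrophages were mostly lower in OP mice too, as were 70.1% of all genes tested. Of 8 fibroblast markers, 8 were lower in OP mice and 6 had an unadjusted limma-trend p below 0.05 (*Col1a1*, *Col1a2*, *Dcn*, *Col6a1*, *Col6a2* and *Pdpn*). Their summed level was 58.8 to 113 FPKM in OP mice and 178 to 332 FPKM in OR mice. Of 8 blood endothelium markers, 8 were lower, all with an unadjusted p below 0.05 (*Pecam1*, *Cdh5*, *Kdr*, *Tek*, *Tie1*, *Emcn*, *Esam* and *Eng*), with sums of 13.3 to 22.2 FPKM in OP mice and 25.3 to 44.6 FPKM in OR mice. Of 12 macrophage markers, 10 were lower, 9 of them with an unadjusted p below 0.05 (*Adgre1*, *Csf1r*, *Cd68*, *Mrc1*, *Cd163*, *C1qa*, *C1qb*, *C1qc* and *Fcgr1*), with sums of 73.8 to 123 and 127 to 162 FPKM. The counts below 0.05 depended on single mice. Those of endothelium numbered 1 without OR mouse 3 and 4 without OP mouse 1 or OP mouse 2. Those of macrophages numbered 4 without OP mouse 2 or OR mouse 2 and 5 without OP mouse 1 or OR mouse 3. The fibroblast count was 5 or 6 with any mouse left out. No marker of these 3 lists was at 0 in any mouse. Set against the summed fibroblast markers of the same mouse, *Il33* was 0.854, 1.97 and 0.603 FPKM per 100 FPKM in OP mice and 1.47, 0.867 and 0.642 in OR mice, which overlapped. Against the endothelium markers it was 5.41, 8.70 and 3.06 in OP mice and 10.3, 5.05 and 4.77 in OR mice, which also overlapped. *Il1b* per 100 FPKM of macrophage markers was 0.976, 0.481 and 0.543 in OP mice and 1.303, 0.542 and 0.963 in OR mice, again overlapping. In such sums the most abundant genes weigh most, so these ratios are not levels per cell. *Dcn* made up 27.9, 17.35 and 40.8 FPKM of the fibroblast sum in OP mice and 81.1, 95.5 and 191 FPKM in OR mice. *Cd14*, whose groups overlapped, made up 20.5 to 26.1 FPKM of the macrophage sum in each mouse. The part that these cells had in the lower cytokine values was not tested.

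*Tnf* encodes TNF, a trigger of NF-kappa-B signalling. It was at 0.72, 1.11 and 1.68 FPKM in OP mice and at 0.96, 1.09 and 1.86 FPKM in OR mice, with about 71 and 81 reads. Each group spanned most of the range of the other. The log2 fold change was -0.09 (standard error 0.24, 95% interval -0.64 to 0.47; limma-trend adjusted p = 0.963), an interval that still holds differences of the size seen in *Il1b*. The means, 1.17 FPKM in OP mice and 1.303 FPKM in OR mice, lay closer together than the SDs of 0.483 and 0.486 FPKM. Per 100 FPKM of macrophage markers *Tnf* was 0.976, 1.48 and 1.36 in OP mice and 0.758, 0.672 and 1.34 in OR mice, and these groups overlapped as well.

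*Il18*, the IL-1 family cytokine of the epithelium, had 16.3, 48.6 and 10.3 FPKM in OP mice and 8.62, 17.97 and 15.3 FPKM in OR mice. A single library, OP mouse 2, was far above the other 5. The log2 fold change was 0.57 (standard error 0.53, 95% interval -0.67 to 1.81; limma-trend adjusted p = 0.945). Without OP mouse 2 it was -0.04, so the higher mean of OP mice came from that mouse. *Il18bp*, which encodes the soluble protein that binds and blocks IL-18, was at 3.83, 10.98 and 9.89 FPKM in OP mice and 19.2, 5.74 and 7.57 FPKM in OR mice. The ratio of *Il18* to *Il18bp* within a mouse was 4.25, 4.42 and 1.04 in OP mice and 0.450, 3.13 and 2.02 in OR mice (two-sided exact permutation p = 0.3), so the ligand stood above its inhibitor in all mice but OR mouse 1.

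*Il1rn* had 8.60, 25.8 and 12.8 FPKM in OP mice and 7.75, 14.3 and 22.4 FPKM in OR mice. The spread within each group was far larger than the difference of the means, 15.7 ± 8.96 against 14.8 ± 7.34 FPKM (SD, n = 3). The log2 fold change was 0.06 (standard error 0.46, 95% interval -1.02 to 1.14; limma-trend adjusted p = 0.988). Without OP mouse 2 it was -0.35 and without OR mouse 1 it was -0.31. The antagonist was more abundant than the ligand it opposes in 6 of 6 mice: the ratio of *Il1rn* to *Il1b* was 11.9, 71.6 and 19.1 in OP mice and 4.70, 16.3 and 16.7 in OR mice. The groups overlapped, with a two-sided exact permutation p of 0.4.

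*Il15* was at 21.1, 7.87 and 15.0 FPKM in OP mice and at 9.97, 14.7 and 7.18 FPKM in OR mice. Its lowest value in each group was in the mouse with the highest *Il1rn*, OP mouse 2 and OR mouse 3. The log2 fold change was 0.38 (standard error 0.37, 95% interval -0.49 to 1.26; limma-trend adjusted p = 0.945). Without OP mouse 2 it was 0.75, with an unadjusted limma-trend p of 0.0480, and without OP mouse 1 it was 0.09.

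**Figure D2:**
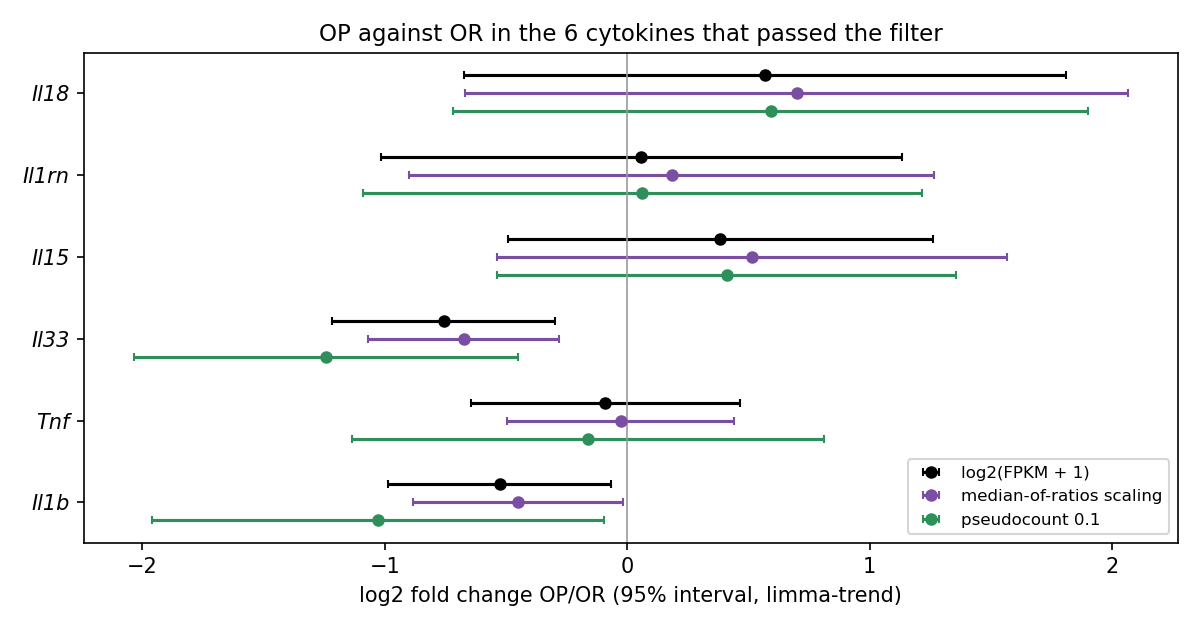
Log2 fold change OP/OR (horizontal axis) of the 6 cytokines that passed the filter, with 95% intervals from limma-trend. Black points are on the log2(FPKM + 1) scale, purple after median-of-ratios scaling and green with a pseudocount of 0.1. The intervals of *Il33* and *Il1b* lie below 0 in all 3 settings, and those of *Il18*, *Il1rn*, *Il15* and *Tnf* include 0.

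The 3 cytokines below the filter were read from few molecules. *Ifng*, the interferon of T and NK cells, was listed at 0.08, 0.27 and 0.07 FPKM in OP mice and 0.27, 0.20 and 0.28 FPKM in OR mice. With 1 read worth about 0.0673 to 0.0759 FPKM, these values correspond to about 1, 4 and 1 reads and 4, 3 and 4 reads. *Il10* was at 0.27, 0.12 and 0.19 FPKM in OP mice and 0.06, 0.24 and 0 FPKM in OR mice, or about 4, 2 and 3 reads against 1, 4 and 0 reads. *Il1a* was listed at 0 in 4 of 6 mice, and the other values were 0.31 FPKM in OP mouse 3 and 0.12 FPKM in OR mouse 3, about 8 and 3 reads. In each of the 3 genes the groups overlapped, and exact permutation tests gave p = 0.3 for *Ifng*, 0.3 for *Il10* and 1 for *Il1a*. With 3 mice a group these tests cannot give a p below 0.1 at any depth. Whether OP and OR mice differ in these genes was not settled, at no more than about 8 reads in a mouse.

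**Figure D3:**
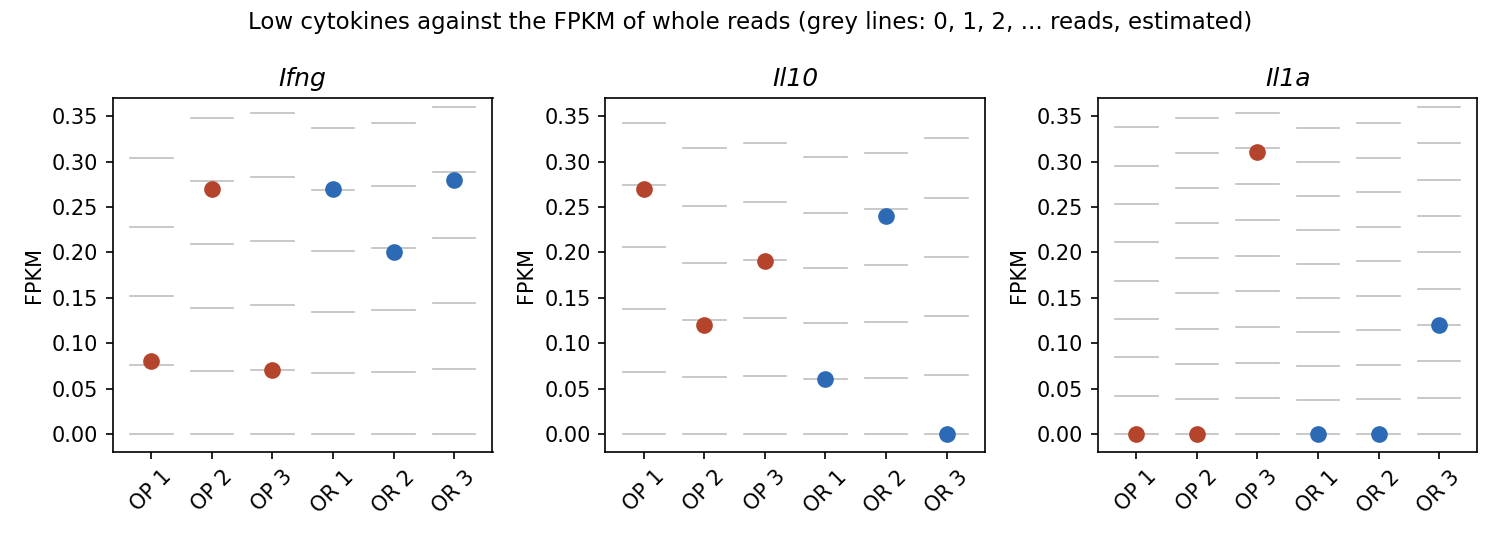
FPKM (vertical axis) of *Ifng*, *Il10* and *Il1a* in each mouse (horizontal axis), with OP mice in red and OR mice in blue. Grey lines mark the FPKM of 0, 1, 2 and more whole reads at the estimated depth of each mouse; the points lie on or close to the lines, between 0 and 8 reads.

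The receptors of these cytokines ranged widely in level. *Ifngr1* and *Ifngr2*, the chains of the interferon gamma receptor, were the highest of 19 receptor and binding protein genes, at 172 ± 10.6 and 148 ± 48.2 FPKM (SD, n = 3) in OP mice and 169 ± 12.4 and 132 ± 20.96 FPKM (SD, n = 3) in OR mice. Of the 19 genes, 17 passed the filter, 0 were called, and *Il1r1* was the 1 gene with an unadjusted limma-trend p below 0.05. Over all genes 3.53% were lower at that level. *Il1r1*, the signalling receptor of IL-1, had 5.21, 6.00 and 9.06 FPKM in OP mice and 9.68, 10.6 and 13.0 FPKM in OR mice (log2 fold change -0.66, standard error 0.23, limma-trend unadjusted p = 0.0225, adjusted p = 0.945). Its groups did not overlap, but without OP mouse 1, OP mouse 2 or OR mouse 3 its unadjusted limma-trend p was above 0.05, up to 0.0888. The number of receptor genes lower at an unadjusted limma-trend p below 0.05 was 0 when any of those 3 mice was left out and 6 without OP mouse 3, a fit in which the all-gene number went from 477 to 1104. Of the 17, 12 had a lower mean log2 value in OP mice. In 3 of them (*Il1r1*, *Il6st* and *Tnfrsf1a*) every OP mouse was below every OR mouse, and in 0 above. The shares over all genes were 6.81% and 1.63%. The unadjusted limma-trend p was 0.0717 for *Il6st* and 0.0715 for *Tnfrsf1a*. The median log2 fold change of the 17 was -0.27, beside -0.10 over all genes tested, and it lay between -0.42 and -0.19 with each mouse left out.

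*Il1rl1*, which encodes the receptor of IL-33, was at 2.34, 0.24 and 0.21 FPKM in OP mice and 0.23, 2.55 and 1.03 FPKM in OR mice. It did not follow its ligand: the 2 highest values were in OP mouse 1 and OR mouse 2, and the groups overlapped.

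Genes for the release of active cytokine were well above the filter, except *Nlrp3*. *Casp1*, the protease that cuts the precursors of IL-1 beta and IL-18, had 146 ± 25.6 FPKM (SD, n = 3) in OP mice and 133 ± 8.78 FPKM (SD, n = 3) in OR mice, and *Gsdmd*, which encodes the pore through which they leave the cell, had 90.8 ± 10.6 and 79.8 ± 5.90 FPKM. Of 10 such genes 9 passed the filter and 0 were called. *Nlrp3*, a sensor that assembles the inflammasome, stayed below the filter with at most 0.14 FPKM. *Aim2*, the sensor of cytosolic DNA, was the 1 gene with an unadjusted limma-trend p below 0.05, at 26.6, 19.8 and 23.6 FPKM in OP mice and 15.1, 18.3 and 16.8 FPKM in OR mice (log2 fold change 0.45, standard error 0.16, limma-trend unadjusted p = 0.0248, adjusted p = 0.945). Without OP mouse 1, OP mouse 3, OR mouse 1 or OR mouse 3 its unadjusted limma-trend p lay between 0.0571 and 0.0943. The median log2 fold change of the 9 was 0.11, and 0.25 after median-of-ratios scaling; with each mouse left out it lay between 0.03 and 0.18.

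Among 25 adaptors, kinases and transcription factors, all passed the filter and 0 were called. *Tradd*, the adaptor of the TNF receptor and the highest of them, was at 90.8, 78.9 and 52.1 FPKM in OP mice and 42.2, 60.6 and 44.5 FPKM in OR mice. The groups overlapped, and its unadjusted limma-trend p of 0.0469 was below 0.05 in only 7 of the 14 alternative fits. *Chuk*, a kinase of the NF-kappa-B pathway, followed with 30.2 to 44.7 FPKM in OP mice and 30.2 to 41.5 FPKM in OR mice. The median log2 fold change of the 25 was -0.04, and 0.09 after median-of-ratios scaling. It lay between -0.14 without OP mouse 3 and -0.03 without OP mouse 1.

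Of 20 genes that cytokines induce, all passed the filter, 0 were called, and at an unadjusted p below 0.05 by limma-trend 1 was lower and 1 higher in OP mice. *Lcn2*, which encodes the iron-withholding protein lipocalin-2, had 0.48, 0.87 and 0.67 FPKM in OP mice and 2.26, 2.04 and 2.23 FPKM in OR mice (log2 fold change -0.93, standard error 0.17, limma-trend unadjusted p = 0.000740, adjusted p = 0.624). *Irf1*, a transcription factor induced by interferon gamma, had the opposite direction, at 140, 133 and 123 FPKM in OP mice and 91.1, 99.9 and 68.1 FPKM in OR mice (log2 fold change 0.62, standard error 0.16, limma-trend unadjusted p = 0.00626, adjusted p = 0.805). Neither gene overlapped between the groups, and both kept an unadjusted p below 0.05 in every alternative fit that tested them, 13 for *Lcn2* and 14 for *Irf1*. Those fits reuse the same mice and are no independent test. Of the 20, 2 were lower in every OP mouse than in every OR mouse (*Lcn2* and *Ptgs2*) and 2 higher (*Irf1* and *Nfkbiz*). The shares over all genes were 6.81% and 1.63%. *Saa1*, an acute-phase protein and the most abundant of the 20, varied from 702 to 2662 FPKM in OR mice and from 1890 to 2416 FPKM in OP mice, and the groups overlapped. *Reg3b*, which encodes an antimicrobial lectin, spread even more widely, from 1.04 to 259.83 FPKM in OP mice and from 6.37 to 852 FPKM in OR mice. The number lower at an unadjusted limma-trend p below 0.05 was 3 without OP mouse 3 and 2 without OP mouse 2 or OR mouse 1. Over all genes it was 477 with every mouse, 1104 without OP mouse 3, 612 without OP mouse 2 and 288 without OR mouse 1. The number higher went from 1 to 2 without OP mouse 3 or OR mouse 1. Over all genes the number higher was 68 with every mouse, 181 without OP mouse 3 and 54 without OR mouse 1. The median log2 fold change of the 20 was -0.09, and 0.02 after median-of-ratios scaling. It went from -0.27 without OP mouse 3 to 0.02 without OR mouse 1.

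**Figure D4:**
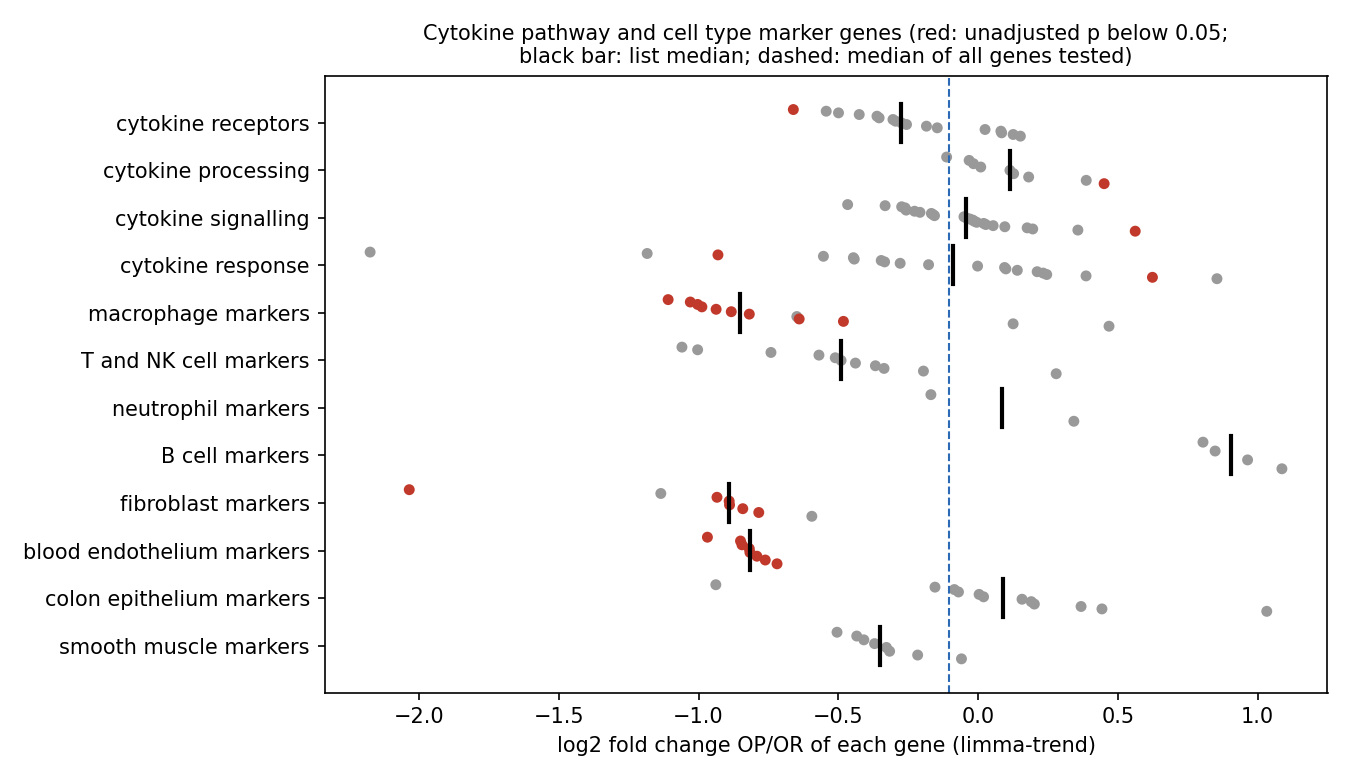
Log2 fold change OP/OR of each gene (horizontal axis, limma-trend) in the 4 cytokine pathway lists and 8 cell type marker lists. Red points have an unadjusted p below 0.05, black bars are list medians and the dashed line is the median of all genes tested at -0.10. The pathway lists have medians from -0.27 to 0.11, and the macrophage, fibroblast and blood endothelium markers from -0.89 to -0.82.

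Markers of lymphocytes and neutrophils, which also make some of these cytokines, varied strongly between mice. Of 12 T and NK cell markers 11 passed the filter, 10 were lower in OP mice and 0 had an unadjusted limma-trend p below 0.05, with sums of 25.9, 41.4 and 101 FPKM in OP mice and 83.1, 68.9 and 98.9 FPKM in OR mice. This overlap rested on OP mouse 3, since the sums of OP mice 1 and 2 were below those of all OR mice. Without OP mouse 3, 9 of the 11 were lower at an unadjusted limma-trend p below 0.05 and their median log2 fold change went from -0.49 to -0.89. In that fit 1104 of all 13520 genes were lower at that level, where 477 were with every mouse. With any other mouse left out, the number of these markers stayed at 0. Without OP mouse 1 their median was -0.17. Of 8 neutrophil markers 7 had a row and 2 passed the filter; *Mpo*, the granule peroxidase, was at 0 in 5 of 6 mice, and *S100a8*, *Ly6g* and *Retnlg* were at 0 in at least 1 mouse. The neutrophil sum was 15.3 FPKM in OP mouse 2, most of it *Ly6g* at 12.5 FPKM, and at most 3.07 FPKM in the other mice. Of 8 B cell markers 4 passed the filter, with a sum of 80.8 FPKM in OP mouse 3 and 5.90 to 11.5 FPKM in the others. None of the 4 had an unadjusted limma-trend p below 0.05. Without OP mouse 2, 3 were higher at that level, in a fit where the all-gene number higher went from 68 to 172. The median log2 fold change of the 4 was 0.91. With each mouse left out it lay between 0.075, without OP mouse 3, and 1.43, without OP mouse 2. Of 8 smooth muscle markers, 8 were lower in OP mice and 0 had an unadjusted limma-trend p below 0.05. Their median log2 fold change was -0.35, and between -0.54 and -0.07 with each mouse left out. The smooth muscle sum was 1843 to 2731 FPKM in OP mice and 2217 to 4081 FPKM in OR mice. Of 12 epithelial markers, 4 were lower and 0 had a p below 0.05 in that fit. The epithelial sum was 15171 to 28362 FPKM in OP mice and 15642 to 28957 FPKM in OR mice. Much of its spread was *Car1*, at 1054 to 15723 FPKM over the 6 mice.

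For each readable cytokine, the genes with the nearest profile over the 6 mice were found by the root mean square difference of the centred log2(FPKM + 1) values among 12453 genes with a mean of at least 1 FPKM. The nearest to *Il33* was *Trim47*, at a difference of 0.0907 where *Il33* itself spanned 1.104, followed by *Stbd1* at 0.109. The nearest to *Il1b* were *Wwtr1* at 0.0677 and *Fxyd1* at 0.0722, and to *Tnf* the chemokine receptor gene *Cxcr6* at 0.0747 and *Zfp7* at 0.0836. *Il15* was followed most closely by *Ces2e*, an intestinal carboxylesterase gene, at 0.0707 over a span of 1.44, and by *Mapre3* at 0.109. *Ces2e* had 605, 207 and 398 FPKM in OP mice and 264, 399 and 197 FPKM in OR mice. *Il18* had *Ppa1* at 0.172 and *Ceacam2* at 0.195, and *Il1rn* had *Oit1* at 0.181 and *Soat1* at 0.205. With 6 mice and this many genes, close profiles are a description only.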

How the data were processed

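Colon RNA of 3 OP and 3 OR mice was analysed from 1 deposited table. Per the methods, the authors sequenced strand-specific, mRNA-enriched libraries, filtered reads with SOAPnuke, aligned them with Bowtie2 to a reference gene set and quantified genes with RSEM; the submitters' processing notes name HISAT2 2.0.4 and GRCm39, and the labels and methods differ in tool versions. The authors deposited FPKM values rounded to 2 decimals. FPKM are not counts, so the study's DESeq2 was not run. The fit took the genes that reached 0.5 FPKM in 3 or more mice, on log2(FPKM + 1), and tested the difference between OP and OR without covariates in limma-trend (limma 3.58.1 under R 4.3.3), with Benjamini-Hochberg adjustment over all genes; single values were compared by two-sided exact permutation tests (SciPy 1.17.1; smallest p 0.1). The fit was checked on simulated data, where recovery was required only for a log2 change larger than that of any cytokine here. That check does not show its power for changes of their size.

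Depth was estimated from the steps of FPKM values between 0.04 and 0.5 in genes with 1 transcript of 500 to 1600 bases in GENCODE M21, with 250 bases taken off each length; this step and the ratios within a mouse were chosen after seeing the data. Transcript lengths and promoters are from GRCm38, not the authors' build. The cytokines and lists were chosen with earlier results of these data known. Genes named are the cytokines, and the pathway and marker genes at an unadjusted p below 0.05. The 2 most abundant genes of each pathway list and the 2 nearest profiles are named too. *Epcam*, *Cdx2*, *Il1rl1*, *Il18bp*, *Nlrp3*, *Cd14*, *Car1*, *Il6st*, *Tnfrsf1a*, *Ptgs2*, *Nfkbiz* and the neutrophil genes named were added after their values were seen. Samples were grouped by title. Same-numbered mice are different animals and were not paired.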

Additional observations from a re-analysis of the deposited data

How the results depend on the processing

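The fit was repeated with median-of-ratios scaling, rescaling to TPM, a pseudocount of 0.1, no filter, a stricter filter (all 6 mice at 1 FPKM or more), limma without its trend, weighted samples, a replicate block, and without each mouse. *Il33* stayed negative in all 13 that tested it, from -1.24 to -0.65, with an unadjusted limma p from 0.00416 to 0.0268. *Il1b* stayed negative, from -1.03 to -0.41, with an unadjusted limma p from 0.0101 to 0.110. Reversed signs, none past a threshold, were -0.0402 for *Il18* and -0.3471 for *Il1rn* without OP replicate 2, -0.3123 for *Il1rn* without OR replicate 1, and for *Tnf* 0.0663 without OP replicate 1 and 0.0768 without OR replicate 3. With each mouse left out, the log2 fold changes ranged from -0.0402 to 1.0246 for *Il18*, -0.3471 to 0.3976 for *Il1rn*, -0.2536 to 0.0768 for *Tnf* and 0.0871 to 0.7466 for *Il15*. Of the cytokines, 2 were lower at an unadjusted p below 0.05; the count was 0 with the stricter filter, which only 3 cytokines passed (*Il18*, *Il1rn* and *Il15*), and 1 to 2 with each mouse left out. The count of cytokines higher was 0, and 0 to 1 with each mouse left out (*Il15* without OP replicate 2).

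Over all genes, 3 were called lower: 0 with median-of-ratios scaling, TPM rescaling, a pseudocount of 0.1 and either other filter, 5 with sample weights and 0 to 1 with each mouse left out. Genes lower at an unadjusted p below 0.05 numbered 477, 317 with the stricter filter and 231 to 1104 with each mouse left out. Genes higher numbered 68, 153 with median-of-ratios scaling, 133 with no filter, 146 with sample weights and 24 to 181 with each mouse left out. Median-of-ratios scaling moved the median of all genes from -0.10 to 0.01. With the replicate block, 0 genes were called, and *Il33* and *Il1b* had unadjusted limma-trend p-values of 0.0223 and 0.0491, and *Aim2* one of 0.0688; the deviations of same-numbered mice correlated at -0.1437, -0.1567 and 0.0709 across genes, and no mouse correlated best with its own number. T and NK cell markers lower at an unadjusted p below 0.05 numbered 0, 2 with the replicate block or sample weights and 9 without OP replicate 3. With the stricter filter, macrophage markers numbered 5 in place of 9 and endothelium markers 3 in place of 8, with fewer of them tested; receptors numbered 3 with sample weights in place of 1. Beyond the fewer genes or mice in some fits, the cause was not tested. Depth limits *Ifng*, *Il10* and *Il1a*, with at most about 8 reads in a mouse.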
